A study of Mus musculus with 8 samples.

Results

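The genes described here are those of the endoplasmic reticulum (ER) folding machinery and of the unfolded protein response, called the ER genes below. A list of 35 symbols was matched to the array's annotation. A symbol counted where a probe set, a group of short probes read as 1 value, was annotated with that symbol alone, and where a gene had several, the brightest on average was used. This gave 33 ER genes among the 12393 genes of the array. Of these, 32 had a mean log2 value of at least 6.87, the 40th percentile of all probe set means, and were tested among 8003 genes. Pdia5, a protein disulfide isomerase, had a mean of 6.44 and was not tested, and Ern1, with a mean of 7.002, lay just above the filter. The symbols Ero1l and Ufd1l had no probe set, but their current names Ero1a and Ufd1 did. These 2 genes are described at the end and are not in the counts.

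The samples were activated cytotoxic CD8 T cells of OT-1 mice, whose T cells carry a transgenic receptor for a peptide of ovalbumin (OVA). The cells of each of 4 mice, A to D, were divided between PD-L1-overexpressed and PD-L1-depleted ID8 cells, a mouse ovarian cancer line. All targets were loaded with OVA peptide, and contact lasted 4 h at 30 T cells per target cell before the T cells were taken out by magnetic separation. Biotin-labelled total RNA was read on a 3' expression array, so each of the 4 mice has 1 array per target and each target has 4 arrays. No array of T cells without targets was used here, and how PD-L1 was raised or lowered, whether the lines were single clones and the age of the mice are not given in the sources used here.

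The ER folds proteins that are secreted or placed in membranes, and an activated CD8 T cell makes many of them, such as granzymes, cytokines and surface receptors. Proteins enter through the SEC61 channel, are held by chaperones such as BiP and GRP94, receive disulfide bonds from the protein disulfide isomerases, and are sent out for degradation if they stay misfolded. When misfolded protein builds up, 3 sensors respond: IRE1 (Ern1) splices Xbp1 mRNA, PERK (Eif2ak3) slows translation, and ATF6 is cut to release a transcription factor. XBP1 and ATF6 then raise transcription of many of the chaperone and degradation genes listed here.

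Promoters are shown for ER genes called higher in mouse D, a comparison described below. The genes were picked by that call alone, and whether they vary together was not tested. RefSeq promoter windows on GRCm38.p6, which run 250 bases before to 50 bases after a gene's start, were found for 28 of the 33 ER genes, with 29 windows. Over the 250 bases before the start, the share of G and C had a median of 62.4% in the 29 windows, with a range of 50% to 76%. The median was 52.4% over 32851 windows of all genes, whether or not a gene was tested here. Windows of the tested genes alone were not compared. The 150 bases before the start follow for 8 genes, 5' to 3' on the gene's strand, from the largest difference in mouse D to the smallest, with no capitals because no stretch is singled out.
Sdf2l1, chr16:17132384-17132533, minus strand: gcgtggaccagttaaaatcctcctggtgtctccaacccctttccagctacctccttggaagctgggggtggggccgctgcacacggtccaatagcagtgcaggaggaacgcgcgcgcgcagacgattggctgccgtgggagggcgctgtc
Creld2, chr15:88819496-88819645, plus strand: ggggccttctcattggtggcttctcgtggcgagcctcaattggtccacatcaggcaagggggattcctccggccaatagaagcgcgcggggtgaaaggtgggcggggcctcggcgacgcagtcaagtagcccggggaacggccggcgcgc
Sec61b, chr4:47474511-47474660, plus strand: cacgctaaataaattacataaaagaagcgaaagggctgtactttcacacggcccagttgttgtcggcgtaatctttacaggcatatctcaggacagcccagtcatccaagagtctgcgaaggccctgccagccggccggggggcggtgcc
Pdia4, chr6:47813513-47813662, minus strand: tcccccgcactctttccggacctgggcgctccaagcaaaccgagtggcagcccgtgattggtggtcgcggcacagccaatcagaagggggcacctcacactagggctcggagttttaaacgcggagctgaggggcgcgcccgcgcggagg
Pdia3, chr2:121413752-121413901, plus strand: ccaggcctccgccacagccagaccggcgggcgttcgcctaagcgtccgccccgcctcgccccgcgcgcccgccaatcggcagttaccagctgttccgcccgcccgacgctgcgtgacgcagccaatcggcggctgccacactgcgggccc
Pdia6, chr12:17266439-17266588, plus strand: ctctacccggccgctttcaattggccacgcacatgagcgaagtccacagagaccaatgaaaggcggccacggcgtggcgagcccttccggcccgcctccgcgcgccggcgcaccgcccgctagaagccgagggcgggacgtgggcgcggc
Spcs2, chr7:99858884-99859033, minus strand: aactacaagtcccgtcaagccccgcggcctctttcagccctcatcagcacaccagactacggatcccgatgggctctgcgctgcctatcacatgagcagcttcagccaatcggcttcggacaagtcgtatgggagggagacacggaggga
Hspa5, chr2:34771940-34772089, plus strand: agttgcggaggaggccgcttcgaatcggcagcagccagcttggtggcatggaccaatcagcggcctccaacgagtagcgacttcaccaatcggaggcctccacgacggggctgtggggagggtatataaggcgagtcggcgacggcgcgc

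Of these, Hspa5 and Sdf2l1 encode BiP and a partner of its co-chaperones, Creld2 a soluble ER protein, Sec61b and Spcs2 parts of the protein entry machinery, and the Pdia genes disulfide isomerases. Manf, the ninth gene higher in mouse D, had no window in the table.

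The arrays read as CD8 T cell RNA. The 10 tested CD8 T cell markers of 11 listed averaged 12.49 to 12.62 per array, with Cd8a at 12.48 to 12.79 and Cd3d at 13.90 to 14.03. Target cell RNA was also present: 11 of 16 ID8 markers on the array passed the filter, and their mean ran between 7.78 and 8.94. Of 10 B and plasma cell markers on the array, 5 passed, Cd74, H2-Aa, H2-Ab1, Ighm and Sdc1, whereas Cd79a, Cd79b, Ms4a1, Blk and Pax5 stayed between 5.47 and 6.82 on every array, under the filter. In a bulk sample, fewer cells of a type and less RNA per cell cannot be told apart. The arrays correlated with each other at 0.994 to 0.998, and their number, 4 per target, limits the precision.

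The first comparison asked whether T cells facing much or little PD-L1 differ in their folding machinery. No ER gene passed the test between targets, and the measured differences were small. Blocking on the mouse, limma called 0 of the 32 ER genes and 0 of all 8003 genes (0%), with an adjusted p of 0.9995 for every ER gene. At an unadjusted p under 0.05 it marked 0 ER genes, against 228 of all genes (2.85%). The differences, PD-L1-overexpressed minus PD-L1-depleted, ran between -0.11 and 0.066 on the log2 scale, with 21 above 0 and 11 below, and had a median of 0.017 against 0.0033 over all genes. Their standard errors were 0.019 (Hspa5) to 0.082 (Ern1). All 32 intervals at 95% lay inside 1.5-fold either way, as did 7956 of all genes (99.4%), so larger differences lay outside the intervals of each ER gene.

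**Figure D1:**
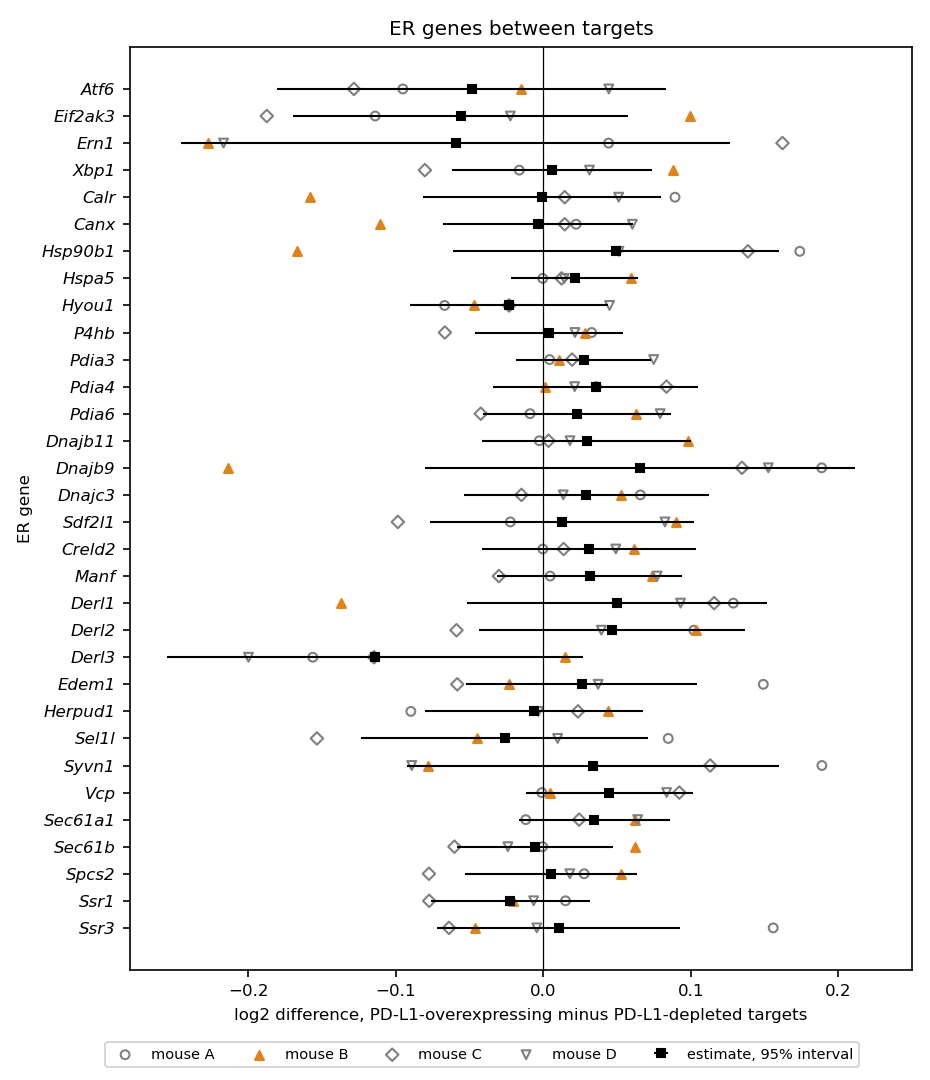
Log2 difference of each tested ER gene between targets, PD-L1-overexpressed minus PD-L1-depleted (horizontal axis), with genes down the page by role. Squares and lines are the limma estimate and its 95% interval, and open or filled symbols are the differences within mice A to D. Every interval crosses 0, and the lowest bound, that of Derl3, is -0.26.

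The mice did not share a direction. The median difference over the 32 ER genes was 0.0099 in mouse A and 0.013 in mouse B, against -0.019 in mouse C and 0.034 in mouse D. Only Pdia3 and Pdia4 were higher with PD-L1-overexpressed targets in all 4 mice, which is 2 of 32 ER genes, against 5.84% of all genes. No ER gene was lower in all 4, against 4.69% of all genes. The count of 0 rested on mouse B: without it 152 of all genes were called higher with PD-L1-overexpressed targets (1.9%) and 24 lower (0.3%), and among the ER genes 1 was called higher, Hsp90b1, and 0 lower.

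The second comparison was between the 4 animals, with the target as a covariate. Here ER genes were called, and mouse D stood out as the high one. The moderated F test of limma called 12 of the 32 ER genes (37.5%) different between mice, a share close to the 29.3% of all genes. Mouse D was higher than the mean of the other mice for 9 ER genes (28.1%), against 4.56% of all genes, and lower for 0, against 4.09%. Its differences had a median of 0.10, with 29 above 0 and 3 below, against a median of 0.00088 over all genes, of which 50.4% lay above 0. Because each mouse has 1 array per target, the spread behind these p-values is that between 2 co-cultures of cells from 1 mouse, not between separate cultures of it.

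Mouse A stood out as the low one. It was lower than the mean of the other mice for 11 ER genes (34.4%), against 12.7% of all genes, and higher for 0, against 18.1%. Its differences had a median of -0.069 over the ER genes, with 23 below 0, and 0.022 over all genes. In mouse B, 5 ER genes were lower (2.96% of all genes) and 1 higher (6.3% of all genes), with a median of -0.035. In mouse C, 2 were higher (3.09% of all genes) and 1 lower (5.35% of all genes), with a median of 0.0088. The 4 contrasts share arrays, since each mouse is also among the others that the remaining mice are set against.

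**Figure D2:**
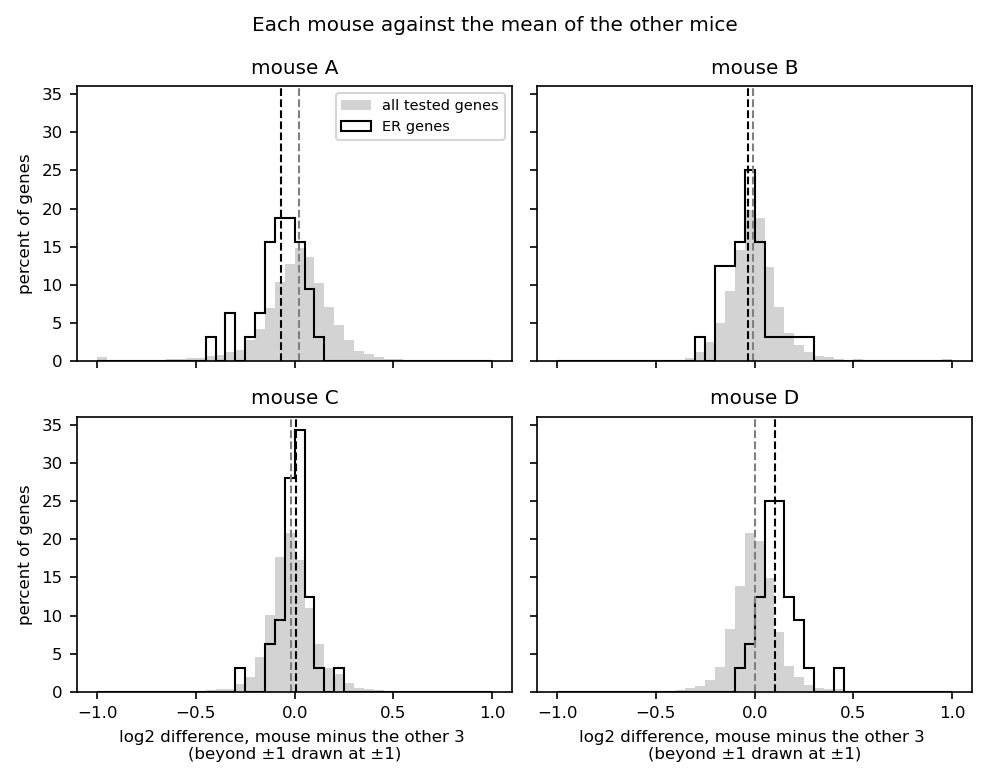
Share of genes in percent (vertical axis) by log2 difference of 1 mouse minus the mean of the other 3 (horizontal axis, values beyond 1 drawn at the edge), 1 panel per mouse. The black outline is the 32 ER genes, grey is all 8003 tested genes, and dashed lines are their medians. In mouse D the ER gene median is 0.10 and that of all genes 0.00088, and in mouse A they are -0.069 and 0.022.

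The counts depended on which mouse was left out. Mouse D was higher for 4 ER genes without mouse A (1.04% of all genes), for 18 without B (11.9%) and for 10 without C (5.51%). Without mouse A, Sdf2l1, Creld2, Pdia3 and Pdia4 remained called in D. Mouse A was lower for 4 ER genes without mouse D (8.85% of all genes), 16 without B (17.8%) and 11 without C (11.6%). In mouse B the direction changed without mouse D, with 0 ER genes lower (2.34% of all genes) and 2 higher (5.65%). With eBayes without a trend, mouse D was higher for 4 ER genes, Sdf2l1, Creld2, Pdia4 and Sec61b, and mouse A lower for 7. The shares of all genes called in single mice were not counted with that setting.

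Marker lists moved with the mice as well. The mean of the 5 tested B and plasma cell markers was 10.31 and 10.33 on the arrays of mouse D, against 9.59 and 9.63 in A, 10.61 and 10.56 in B, and 9.79 and 9.90 in C. It was thus highest in mouse B. Of these 5 markers, 3 were called higher and 0 lower in mouse D, 0 higher and 3 lower in A, 4 higher and 1 lower in B, and 1 higher and 2 lower in C. Ighm, the immunoglobulin heavy chain gene of IgM, was 11.05 and 11.07 in mouse D, against 10.21 and 10.26 in A and 10.71 to 10.93 in B and C. Both arrays of D were thus the highest and both of A the lowest for Ighm. Other markers had other orders. Cd74 was 12.51 and 12.45 in mouse D, against 12.40 and 12.43 in A, 12.69 and 12.705 in B, and 11.96 and 11.99 in C. H2-Ab1 was 11.16 and 11.15 in mouse D, against 10.70 and 10.76 in A, 11.58 and 11.53 in B, and 11.06 and 11.12 in C. H2-Aa, an MHC class II gene, was 8.98 and 9.16 in mouse D, against 6.77 on both arrays of A, 10.21 and 10.11 in B, and 7.03 and 7.25 in C. Sdc1, a plasma cell surface gene, was 7.88 and 7.83 in mouse D, against 7.63 to 8.35 in the other mice. The ID8 marker mean was 8.82 and 8.22 in mouse D, against 8.50 and 7.78 in A, 7.88 and 8.81 in B, and 8.94 and 8.39 in C. The CD8 T cell marker mean was 12.55 and 12.55 in mouse D, against 12.49 to 12.62 in the others. Of the 10 tested CD8 T cell markers, 7 passed the F test between mice. In mouse A, 1 was called higher and 5 lower, with a median difference of -0.0998. In mouse D, 2 were higher and 2 lower, in B 1 higher and 0 lower, and in C 3 higher and 0 lower. Of 2 tested macrophage and dendritic cell markers, 1 was called lower in A and 1 higher in C. The part of these markers in the differences between mice was not tested.

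**Figure D3:**
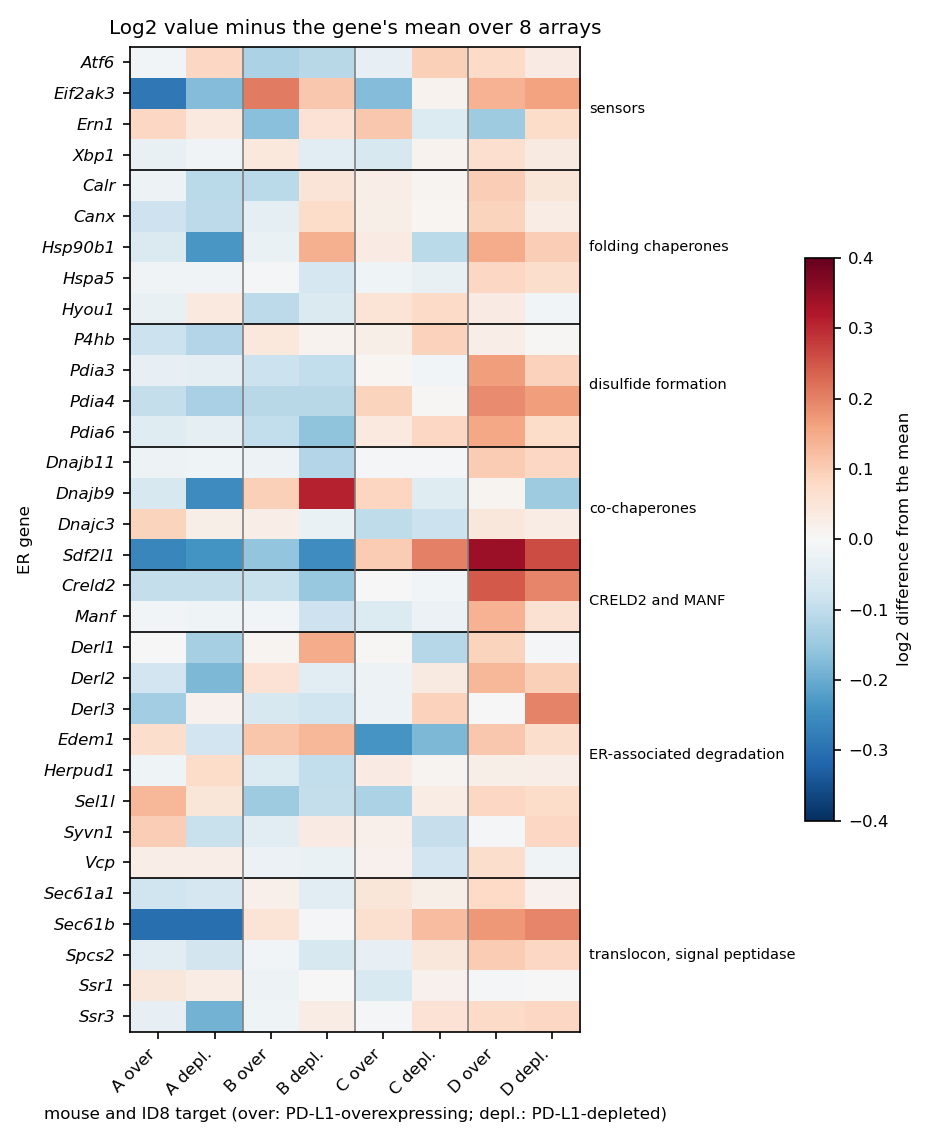
Deviation of each of the 32 tested ER genes from its own mean over the 8 arrays, in log2 units (colour), with genes down the page by role and arrays across by mouse and target. The columns of mouse D are mostly red and those of mouse A mostly blue, and both columns of a mouse mostly share a colour.

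Of the sensors and Xbp1, only Eif2ak3 passed between mice. Ern1, which encodes the sensor kinase and nuclease IRE1, stood at 7.09, 6.83, 7.11 and 6.86 with PD-L1-overexpressed targets in mice A to D, against 7.04, 7.06, 6.95 and 7.08 with PD-L1-depleted targets. Atf6 stood at 7.43, 7.31, 7.41 and 7.52 with PD-L1-overexpressed targets, against 7.52, 7.33, 7.53 and 7.47 with depleted ones. The groups overlapped for both, and the differences were -0.059 (SE 0.082) and -0.048 (SE 0.058). Xbp1, the transcription factor gene whose mRNA IRE1 splices, read 12.09, 12.17, 12.06 and 12.19 with PD-L1-overexpressed targets in mice A to D and 12.11, 12.08, 12.14 and 12.16 with depleted ones. Its means were 12.13 ± 0.061 and 12.12 ± 0.036 (SD, n = 4 each), a difference of 0.0058 (SE 0.030). The values do not tell spliced and unspliced Xbp1 mRNA apart. None of Ern1, Atf6 and Xbp1 passed between mice (limma F test, adjusted p = 0.782, 0.295 and 0.403).

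Eif2ak3, which encodes PERK, was low in mouse A. It stood at 9.09, 9.59, 9.20 and 9.52 with PD-L1-overexpressed targets in mice A to D, and at 9.20, 9.49, 9.39 and 9.54 with PD-L1-depleted targets. The targets overlapped, whereas all arrays of mice A and C, at most 9.39, lay below all arrays of B and D, at least 9.49. Mouse A differed from the mean of the others by -0.31 (SE 0.058, limma adjusted p = 0.00422), and the differences of mouse B (0.21, adjusted p = 0.0538) and mouse D (0.20, adjusted p = 0.0655) did not pass. Between targets Eif2ak3 differed by -0.056 (SE 0.050).

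Among the folding chaperones, only Hspa5 passed between mice. It encodes BiP, the HSP70 chaperone that binds unfolded proteins and holds the sensors inactive. It read 13.26, 13.27, 13.26 and 13.36 with PD-L1-overexpressed targets in mice A to D, against 13.26, 13.21, 13.25 and 13.34 with PD-L1-depleted targets. Both arrays of mouse D lay above the other 6, whereas the targets overlapped. Mouse D was higher by 0.10 (SE 0.022, limma adjusted p = 0.0221), which is 1.07-fold, and the call was lost in 5 alternatives. These were leaving out mouse A (0.11, adjusted p = 0.0662), quantile normalisation (adjusted p = 0.0519), median centring (adjusted p = 0.0558), the mean of its probe sets (adjusted p = 0.0919) and eBayes without a trend (adjusted p = 0.169). A lower-reading Hspa5 probe set gave 0.11 for mouse D. Between targets Hspa5 averaged 13.29 ± 0.049 and 13.26 ± 0.058 (SD, n = 4 each), a difference of 0.021 (SE 0.019).

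The other chaperones varied more between co-cultures. Hsp90b1, the gene of the HSP90 family member GRP94, read 12.18, 12.22, 12.27 and 12.39 with PD-L1-overexpressed targets, against 12.01, 12.38, 12.13 and 12.34 with PD-L1-depleted targets, in mice A to D. The reading was higher with PD-L1-overexpressed targets in mice A, C and D and lower in mouse B, and the groups overlapped. The difference between targets was 0.049 (SE 0.049), and mouse A was lower, at -0.19 (SE 0.056, limma adjusted p = 0.0297). Mouse D was higher by 0.17 and not called (adjusted p = 0.115). A second Hsp90b1 probe set, with a mean of 12.19, gave -0.12, -0.00062, -0.14 and 0.26 for mice A to D, so its largest difference was in mouse D. Calr, the lectin chaperone calreticulin, read 13.37, 13.28, 13.41 and 13.49 with PD-L1-overexpressed targets and 13.28, 13.44, 13.40 and 13.44 with depleted ones, and differed by -0.00078 (SE 0.036). Canx, the membrane-bound lectin chaperone calnexin, was lower in mouse A, at -0.13 (SE 0.033, adjusted p = 0.0181), and both its arrays there lay below the other 6. Neither call in mouse A held without mouse D (adjusted p = 0.133 for Hsp90b1 and 0.0623 for Canx) or with eBayes without a trend (0.0893 and 0.0863). Hyou1, an HSP70-related exchange factor, was not called in any mouse.

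All 4 tested genes of disulfide formation passed the F test between mice, as did 29.3% of all genes, and roles were not tested against each other. Pdia3, the isomerase ERp57 that works with the lectin chaperones, stood at 13.06, 13.00, 13.10 and 13.25 with PD-L1-overexpressed targets in mice A to D, and at 13.05, 12.99, 13.08 and 13.18 with PD-L1-depleted targets. Pdia4, another isomerase, stood at 10.46, 10.45, 10.65 and 10.75 with PD-L1-overexpressed targets, and at 10.43, 10.45, 10.56 and 10.72 with PD-L1-depleted targets. For both genes the 2 arrays of mouse D were the highest, while the targets overlapped. Mouse D was higher by 0.17 for Pdia3 (SE 0.024, limma adjusted p = 0.00246) and by 0.24 for Pdia4 (SE 0.036, adjusted p = 0.00414), or 1.13-fold and 1.18-fold. The Pdia3 call was lost with eBayes without a trend (adjusted p = 0.0551) and the Pdia4 call with the mean of its probe sets (adjusted p = 0.0525). Pdia4 was also lower in mouse A, at -0.15 (adjusted p = 0.0120). That call was lost without mouse D (-0.080, adjusted p = 0.255) and with the mean of its probe sets (-0.092, adjusted p = 0.142).

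Pdia6 and P4hb showed other orders of the mice. Pdia6, an isomerase that also acts on IRE1, read 11.88, 11.83, 11.96 and 12.08 with PD-L1-overexpressed targets in mice A to D, against 11.89, 11.76, 12.01 and 11.999 with PD-L1-depleted targets. Mouse D was higher by 0.15 (SE 0.033, limma adjusted p = 0.0221), although its lower array lay just under the higher of mouse C, and mouse B was lower, at -0.17 (adjusted p = 0.0116). The call in mouse D was lost without mouse A (0.15, adjusted p = 0.0838), and that in mouse B without mouse D (-0.14, adjusted p = 0.0640). Both were also lost with the mean of its probe sets (adjusted p = 0.101 in D and 0.211 in B) and with eBayes without a trend (0.102 and 0.0647). P4hb, the founding member of the isomerase family, read 13.13, 13.25, 13.24 and 13.24 with PD-L1-overexpressed targets and 13.10, 13.23, 13.30 and 13.22 with depleted ones. Both arrays of mouse A lay below the other 6, at -0.13 (SE 0.026, adjusted p = 0.00443), and mouse D was not called (0.021, adjusted p = 0.680). Mouse B was also lower for Pdia3 (-0.12, adjusted p = 0.0134) and Pdia4 (-0.15, adjusted p = 0.0330). Without mouse D these were -0.073 (adjusted p = 0.156) and -0.078 (adjusted p = 0.328), and neither was called. Pdia4 in mouse B was -0.22 without mouse A, and it was not called without mouse C (adjusted p = 0.0676) or with median centring (adjusted p = 0.0594), and neither gene was with eBayes without a trend (adjusted p = 0.109 for Pdia3 and 0.0720 for Pdia4).

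The largest difference of any ER gene in mouse D was that of Sdf2l1, whose protein is part of the BiP co-chaperone complex. Sdf2l1 stood at 10.14, 10.24, 10.50 and 10.74 with PD-L1-overexpressed targets in mice A to D, against 10.16, 10.15, 10.60 and 10.66 with PD-L1-depleted targets. Mice A and B were low, C was between and D was high, and no array of D overlapped those of another mouse. Mouse D averaged 10.70 and the others 10.30, a difference of 0.40 (SE 0.046, limma adjusted p = 0.000948) or 1.32-fold. Mice A and B were lower, at -0.33 (adjusted p = 0.000772) and -0.27 (adjusted p = 0.00729), and mouse C was higher by 0.20 (adjusted p = 0.0294). The difference of mouse B was -0.16 without mouse D and not called (adjusted p = 0.123), and -0.43 without mouse A. That of mouse C was 0.10 without mouse A and not called (adjusted p = 0.314), was 0.13 without mouse B and 0.38 without mouse D, and lost its call with eBayes without a trend (adjusted p = 0.0759). Between targets it differed by 0.013 (SE 0.040).

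The 3 DnaJ co-chaperones that bring clients to BiP did not pass in any mouse. Dnajb11 (ERdj3) was 0.12 higher in mouse D (SE 0.036, limma adjusted p = 0.0672), with both arrays above the other 6. Dnajb9 (ERdj4), which returns IRE1 to its inactive form, spanned 0.36 between the highest and lowest mouse, with mouse B 0.27 above the others (adjusted p = 0.0557). Dnajc3 (p58IPK) differed from the others by 0.050 in mouse D.

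Creld2 and Manf, which encode soluble ER proteins that can be secreted, were both higher in mouse D. Creld2 read 10.09, 10.10, 10.19 and 10.43 with PD-L1-overexpressed targets in mice A to D, against 10.09, 10.03, 10.18 and 10.38 with PD-L1-depleted targets. Mouse D averaged 10.41 and the others 10.11, a difference of 0.29 (SE 0.037, limma adjusted p = 0.00158) or 1.23-fold. Creld2 was also lower in mouse A (-0.13, adjusted p = 0.0286) and mouse B (-0.16, adjusted p = 0.0279). Without mouse D these were -0.033 (adjusted p = 0.669) and -0.072 (adjusted p = 0.392), and neither was called. The call in B was also lost with eBayes without a trend (adjusted p = 0.0555). Manf read 11.81, 11.81, 11.77 and 11.96 with PD-L1-overexpressed targets and 11.80, 11.74, 11.80 and 11.88 with depleted ones, and was higher in mouse D by 0.13 (SE 0.032, adjusted p = 0.0338). Both arrays of mouse D were the highest for each gene, and the targets overlapped. The Manf call was lost without mouse A (adjusted p = 0.0937), with median centring (adjusted p = 0.0667) and with eBayes without a trend (adjusted p = 0.126).

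**Figure D4:**
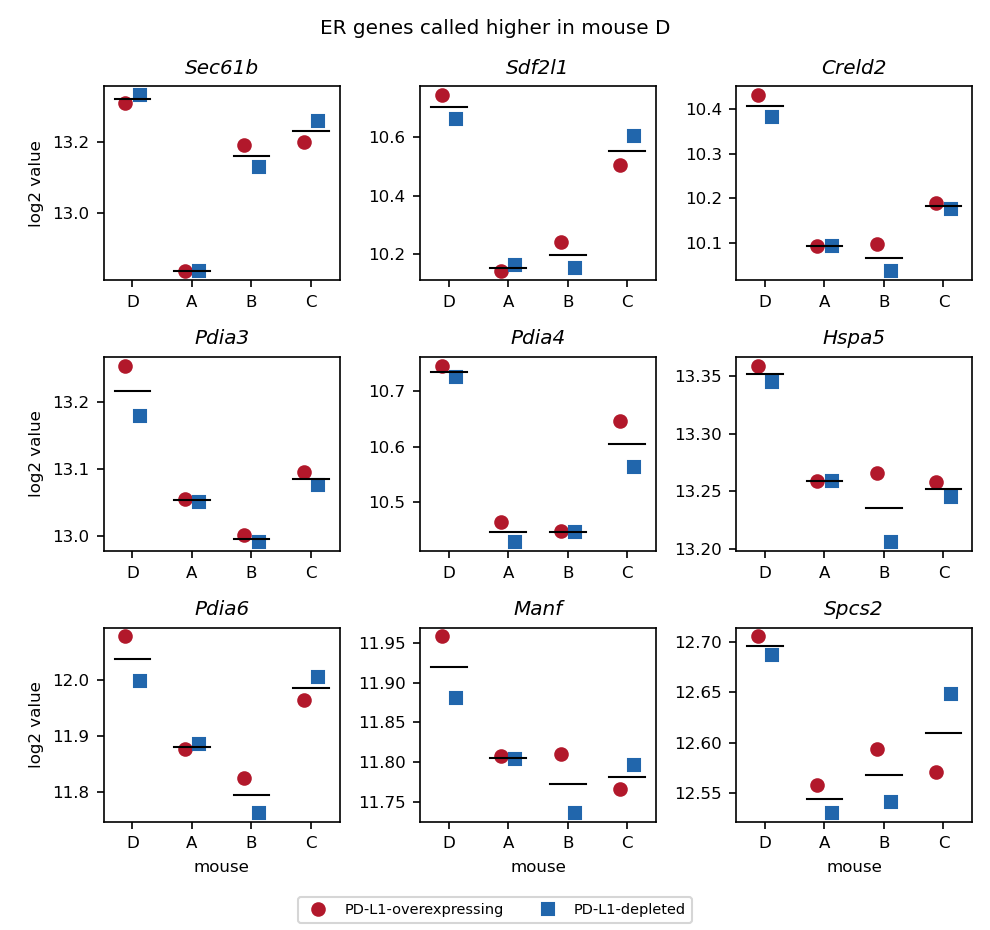
Log2 values (vertical axes, which do not start at 0) of the 9 ER genes called higher in mouse D, by mouse, with circles for PD-L1-overexpressed and squares for PD-L1-depleted targets and a bar at the mean of the mouse. In 8 of the 9 genes both values of mouse D lie above the other 6, the exception being Pdia6.

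Genes of ER-associated degradation, which moves misfolded proteins to the cytosol, had 0 of 8 tested genes called in mouse D, a count near the share of all genes called there (4.56% higher and 4.09% lower). Their median difference in mouse D was 0.080, against 0.00088 over all genes. Edem1, a mannosidase-like protein that picks out misfolded glycoproteins, stood apart in mouse C. It read 12.01, 12.05, 11.70 and 12.04 with PD-L1-overexpressed targets in mice A to D, against 11.86, 12.07, 11.76 and 12.01 with PD-L1-depleted targets. Both arrays of mouse C were the lowest, at -0.28 (SE 0.040, limma adjusted p = 0.00385), while mouse B was higher by 0.16 (adjusted p = 0.0360). Without mouse C the Edem1 difference of mouse B was 0.080 and not called (adjusted p = 0.264), and it was also not called with quantile normalisation (adjusted p = 0.0521), the mean of its probe sets (0.416) or eBayes without a trend (0.114). Its lower-reading probe set gave -0.075 for mouse B, the opposite sign.

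The derlins, which form the exit channel, differed among themselves. Derl3 read 7.11, 7.19, 7.23 and 7.25 with PD-L1-overexpressed targets in mice A to D, against 7.27, 7.17, 7.35 and 7.45 with PD-L1-depleted targets, and had the smallest p of the ER genes between targets. Its means were 7.197 ± 0.061 and 7.31 ± 0.12 (SD, n = 4 each), a difference of -0.11 (SE 0.062, limma adjusted p = 0.9995), lower in 3 of 4 mice. Derl2 read 9.68, 9.81, 9.73 and 9.89 with PD-L1-overexpressed targets and 9.58, 9.71, 9.79 and 9.85 with depleted ones. Mouse A held its 2 lowest readings and mouse D its 2 highest, and mouse A was lower, at -0.17 (SE 0.046, adjusted p = 0.0204). A second Derl2 probe set, with a mean of 7.81, gave 0.23 for mouse A, so the 2 probe sets disagree in sign, and their mean gave 0.030. Without mouse D the Derl2 difference of mouse A was -0.14 and not called (adjusted p = 0.126). Derl1 differed by 0.050 between targets (SE 0.045).

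The other degradation genes did not pass between mice. Vcp, the ATPase that pulls proteins out of the membrane, read 12.47, 12.42, 12.46 and 12.51 with PD-L1-overexpressed targets in mice A to D, and 12.47, 12.41, 12.36 and 12.43 with PD-L1-depleted targets. The difference was 0.045 (SE 0.025), and the groups overlapped. Sel1l and Syvn1, the adaptor and the ubiquitin ligase HRD1 of the main degradation complex, differed from the others by 0.10 and 0.050 in mouse D, and Herpud1, a membrane partner of the complex, by 0.035. None of these passed.

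In the translocon group Sec61b carried the clearest difference between animals. Sec61b, a subunit of the SEC61 entry channel, read 12.83, 13.19, 13.20 and 13.31 with PD-L1-overexpressed targets in mice A to D, against 12.83, 13.13, 13.26 and 13.33 with PD-L1-depleted targets. Both arrays of mouse A were the lowest and both of mouse D the highest, and the targets overlapped. Mouse A averaged 12.83 and the others 13.24, a difference of -0.40 (SE 0.027, limma adjusted p = 9.59e-06), or 0.757 times their level. Mouse D was higher by 0.25 (SE 0.027, adjusted p = 0.000752). Without mouse A the difference of mouse D was 0.13 (adjusted p = 0.0770) and that of mouse C -0.0097, against 0.13 (adjusted p = 0.0239) with all mice. The difference of mouse C was 0.23 without mouse D, and its call was also lost with eBayes without a trend (adjusted p = 0.127).

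Other genes of protein entry moved less. Sec61a1, the channel's pore subunit, read 12.49, 12.59, 12.61 and 12.65 with PD-L1-overexpressed targets in mice A to D, and 12.50, 12.53, 12.59 and 12.58 with PD-L1-depleted targets. Mouse A was lower, at -0.098 (SE 0.026, limma adjusted p = 0.0198), with both arrays below the other 6. That call was lost without mouse C (adjusted p = 0.0525), without mouse D (0.0994), with the mean of its probe sets (-0.063, adjusted p = 0.135) and with eBayes without a trend (0.0990). Spcs2, a subunit of the signal peptidase, read 12.56, 12.59, 12.57 and 12.71 with PD-L1-overexpressed targets and 12.53, 12.54, 12.65 and 12.69 with depleted ones. It was higher in mouse D by 0.12 (SE 0.030, adjusted p = 0.0360), with both arrays the highest, and that call was lost without mouse A (adjusted p = 0.173), with quantile normalisation (0.0895), with median centring (0.0709) and with eBayes without a trend (0.156). Of the translocon-associated proteins, Ssr3 was lower in mouse A (-0.15, adjusted p = 0.0258) and Ssr1 was not called in any mouse (F test, adjusted p = 0.451). The Ssr3 call was lost without mouse D (adjusted p = 0.110) and with eBayes without a trend (adjusted p = 0.0831).

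Counted by array, 11 ER genes had both arrays of mouse D above the other 6 (7.45% of all genes). These were 8 of the 9 genes called higher there, with Derl2, Dnajb11 and Ssr3. For 6 ER genes both arrays of mouse A lay below the other 6 (13.9% of all genes), namely Sec61b, P4hb, Canx, Sec61a1, Derl2 and Ssr3. Of the tested ER genes, 20 had several probe sets. The genes called higher in mouse D had 3 further probe sets above the filter, of Hspa5, Pdia6 and Spcs2, and all 3 gave a positive difference for mouse D.

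Genes of the same pathways outside the list of 35 were called in both directions. Over all genes, 4.56% were called higher and 4.09% lower in mouse D, and 18.1% higher and 12.7% lower in mouse A, so in A higher calls outnumber lower ones in general. In the PERK and ATF4 arm, 2 of 17 tested genes were higher and 4 lower in mouse D, and 9 were higher and 4 lower in mouse A. Nupr1, a stress-induced nuclear protein, averaged lower in mouse D (-0.42, limma adjusted p = 0.000255) and higher in mouse A (0.73, adjusted p = 2.01e-06). Ppp1r15a, the phosphatase subunit that reverses PERK's effect on translation, was lower in mouse D (-0.46, adjusted p = 0.00107) and higher in mouse B (0.68, adjusted p = 0.000100). Cth, an enzyme of cysteine synthesis, was higher in mouse A (0.58, adjusted p = 3.45e-06).

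Other genes of protein entry and glycosylation went both ways. Of 16 tested translocon and signal peptide genes, 2 were higher and 1 lower in mouse D, and 3 higher and 4 lower in mouse A. Ssr4, a further translocon-associated protein, was higher in mouse D (0.21, limma adjusted p = 0.00125) and lower in mouse A (-0.38, adjusted p = 8.33e-06), and Srprb, a subunit of the signal recognition particle receptor, had the opposite signs (-0.23 in D and 0.32 in A). Srp14 was lower in mouse A (-0.13). Of 15 tested N-glycosylation genes, 3 were higher and 0 lower in mouse D, and 3 higher and 1 lower in mouse A. Rpn1, a subunit of the oligosaccharyltransferase, was higher in mouse D (0.14, adjusted p = 0.0327), and the subunits Rpn2 and Ddost were higher in mouse A (0.19 and 0.14).

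Further folding, degradation and transport genes had more higher than lower calls in mouse A, which is also the direction of all genes there (18.1% higher and 12.7% lower). Of 18 other ER folding and redox genes, 1 was higher and 4 lower in mouse D, and 10 were higher and 2 lower in mouse A. Fkbp2, an ER prolyl isomerase, was higher in mouse D (0.28, limma adjusted p = 0.00178) and lower in mouse A (-0.49, adjusted p = 1.53e-05), whereas Tmx1 (-0.20 in D, 0.37 in A) and the calcium-binding Calu (-0.16 in D, 0.33 in A) had the opposite signs. Of 12 other degradation genes, 0 were higher and 1 lower in mouse D, and 6 higher and 0 lower in mouse A, among them the lectin gene Erlec1 (-0.18 in D, 0.28 in A), Aup1 (0.11 in A) and Ubxn4 (0.14 in A). Of 15 ER to Golgi transport genes, 0 were higher and 1 lower in mouse D, and 2 higher and 1 lower in mouse A. The lower one in D was the cargo receptor gene Lman1 (-0.21). In A, Lman1 was higher (0.38) and the coat gene Sec24d lower (-0.24), and in B the coat gene Sec13 was lower (-0.17).

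Of 17 tested heat shock chaperone genes, mostly of the cytosol, mouse D had 0 higher and 6 lower (median -0.070), where 4.56% of all genes were higher and 4.09% lower. Mouse A had 12 higher and 1 lower (median 0.12), where 18.1% of all genes were higher and 12.7% lower. Hspa1a, an inducible HSP70 gene, was lower in mouse D (-0.34, limma adjusted p = 0.00122) and higher in mouse B (0.54, adjusted p = 6.35e-05). Dnajb1, its co-chaperone, was lower in mouse D (-0.31, adjusted p = 0.000411) and higher in mouse B (0.26, adjusted p = 0.00123). Hspb1, a small heat shock protein gene, was lower in mouse A (-0.45, adjusted p = 0.000374) and higher in mouse B (0.47, adjusted p = 0.00114). In these 7 pathway lists 0 genes were called between targets. No test of a difference between lists was made.

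The mean of the ID8 markers ran the opposite way between targets in mouse B. A sign in mouse B opposite to that shared by mice A, C and D was seen for 8 of 32 ER genes (25%), a share near the 22.4% of all genes. It was positive in A, C and D for 5 (15.6%), Hsp90b1, Calr, Canx, Dnajb9 and Derl1, against 8.96% of all genes. It was negative in A, C and D for 3 (9.38%), Derl3, Eif2ak3 and Sec61b, against 13.4% of all genes. Dnajb9 differed by 0.19, 0.13 and 0.15 in mice A, C and D and by -0.21 in mouse B, and Hsp90b1 by 0.17, 0.14 and 0.051 and by -0.17. The ID8 marker mean, over 11 genes, differed by 0.72, 0.56 and 0.60 in mice A, C and D and by -0.94 in mouse B. Upk3b, a mesothelial surface gene, was 9.28, 7.51, 9.95 and 9.78 with PD-L1-overexpressed targets in mice A to D, against 7.61, 9.79, 8.07 and 7.96 with PD-L1-depleted targets. Krt18, Krt19, Msln, Fn1, Cald1, Sparc and Col4a1 had the same signs as Upk3b in each mouse. The other tested markers did not all follow. In mice A to D, Epcam differed by 0.012, 0.13, -0.25 and 0.025, Cav1 by 0.023, 0.020, -0.42 and -0.17, and Krt8 by 0.20, -0.48, -0.018 and 0.14.

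Without mouse B, Hsp90b1 was called higher with PD-L1-overexpressed targets, by 0.12 (SE 0.029, limma adjusted p = 0.0274). Dnajb9 (0.16, adjusted p = 0.0656) and Derl1 (0.11, adjusted p = 0.0950) were not called. The ID8 marker mean stood higher with PD-L1-overexpressed targets in each of the 3 mice left, by 0.56 to 0.72. The part of target cell RNA in these differences was not tested.

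**Figure D5:**
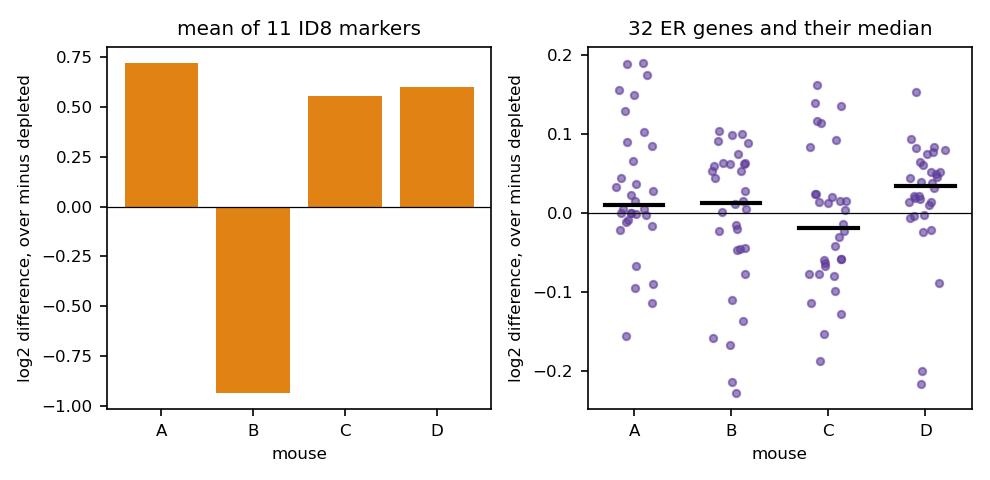
Log2 difference between targets, PD-L1-overexpressed minus PD-L1-depleted (vertical axes, on different scales), in mice A to D, for the mean of 11 ID8 markers (bars, left) and for each of the 32 tested ER genes (points, right, spread sideways for sight, with a line at their median). The marker mean is -0.94 in mouse B and 0.56 to 0.72 in the others, and the ER gene median lies between -0.019 and 0.034 in every mouse.

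Ero1a and Ufd1, matched through current symbols only, were no exception between targets. Ero1a, the oxidase that passes oxidising power to the disulfide isomerases, read 13.48, 13.70, 13.65 and 13.63 with PD-L1-overexpressed targets in mice A to D, against 13.44, 13.72, 13.63 and 13.62 with PD-L1-depleted targets. Both arrays of mouse A were the lowest and both of mouse B the highest. Mouse A was lower, at -0.20 (limma adjusted p = 0.000160) and mouse B higher by 0.13 (adjusted p = 0.00530), while mouse D did not pass (0.026). Ufd1, a cofactor of Vcp, read 9.61, 9.65, 9.55 and 9.66 with PD-L1-overexpressed targets and 9.71, 9.71, 9.43 and 9.70 with depleted ones, and did not pass between mice (F test, adjusted p = 0.0960). Pdia5, under the filter, read 6.24 to 6.64 over the arrays.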

How the data were processed

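RNA of 8 samples was measured on 3' expression arrays. The authors deposited 1 log2 expression value per probe set, with a range of 3.60 to 15.24. Their log2 scale is inferred from that range, and no source used here gives the summary and normalisation methods. At any rank the arrays' values were at most 0.167 apart, and array medians ran between 7.55 and 7.60, so a shift common to most genes may not show. The table held 0 columns of other samples.

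Of 22690 probe sets, 64 were controls, 20380 had a single gene symbol, 691 several and 1555 none. Single-symbol probe sets covered 12393 genes, of which 4956 had several, and 4390 genes fell under the filter of 6.87. The probe sets used for Canx, Xbp1, Derl1 and Hyou1 are of a type that can match several transcripts. Those used for Hspa5, Hsp90b1, Calr, P4hb, Herpud1, Derl3, Sec61a1, Ssr3 and Ufd1 are of another type that can also do so.

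Two-sided tests used the functions lmFit and eBayes (trend on) of limma 3.58.1, run in R 4.3.3. P-values were adjusted by Benjamini-Hochberg over all 8003 genes, with a threshold of 0.05. Targets were compared with the mouse as a fixed block, because the series design divides the cells of each mouse between targets. Deviations of the arrays of a mouse from their group means correlated at 0.82, 0.61 and 0.64 in mice A, C and D and at 0.16 in mouse B. Mice were compared with a moderated F test and by contrasts of each mouse with the mean of the other 3, with the target as covariate. The steps were also run on simulated data with independent noise and no differences between mice beyond those added. That run lacked the real spread between mice, so it cannot vouch for the calls made here. The alternatives are listed in the closing section.

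The ER genes and the lists were chosen with earlier results of these data known. Array values are given for Hspa5, Hsp90b1, Calr, the sensors and Xbp1, and for the ER genes with the 6 smallest p between targets and the 12 smallest between mice. Array values of Manf, Ero1a and Ufd1 were added outside this rule. Up to 3 genes per pathway list, by p between mice, are named. Promoter sequences are RefSeq's, and no motif result is reported.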

Additional observations from a re-analysis of the deposited data

Results flagged for a closer look

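For each target, the most distant of the 4 arrays was measured by its gap to the next value as a share of the whole range. Of 80 such groups of ER gene values and list means, 6 held such a distant array, and about 4, or 1 in 20, would by chance. With PD-L1-overexpressed targets, mouse D was far above for Hspa5 (share 0.925, at 13.36 with the next at 13.27), Dnajb11 (0.875, at 10.81 with the next at 10.70) and Derl1 (0.856, at 11.10 with the next at 11.03). With the same targets, mouse C was far below for Edem1 (0.886, at 11.70 with the next at 12.01) and mouse A for P4hb (0.872, at 13.13 with the next at 13.24). With PD-L1-depleted targets, mouse C was far below for Ufd1 (0.952, at 9.43 with the next at 9.70).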

How the results depend on the processing

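The alternatives were quantile normalisation, median centring, no filter or a stricter one, averaging each gene's probe sets, eBayes without a trend, the mouse as a random block or no block, and leaving out each mouse. With no replicate block and with a random replicate block, 0 genes were called between targets, and the median ER difference without the block was 0.017. Leaving out 1 mouse gave 0 to 176 genes and 0 to 1 ER gene between targets (both maxima without B), and 576 (without A) to 3555 (without B) genes and 6 (without A or D) to 20 (without B) ER genes between mice. The ER genes called numbered 4 to 16 in mouse A, 4 to 18 in D, 2 to 6 in B and 1 to 6 in C. The 2 called in mouse B without mouse D were both higher, against 1 higher and 5 lower with all mice. With eBayes without a trend, 7 ER genes were called between mice, 7 in mouse A, 4 in D, and 1 each in B and C. With that setting 1652 of all genes were called between mice, against 2347 with the main settings. For alternatives that kept all mice, the shares of all genes called in single mice were not counted. In mouse D, 9 were called with either filter change, 7 with quantile normalisation, 6 with median centring and 8 with the mean of probe sets. Of those 8, only 6 were among the 9 of the main settings. In mouse A, the mean of probe sets gave 2 higher and 10 lower, and 8 of these were among the 11 lower with the main settings.

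Signs turned for several single genes. Between targets, where none was called, Calr was 0.0073 with median centring and ran between -0.031 and 0.052 without 1 mouse, Xbp1 was -0.016 with quantile normalisation and ran between -0.022 and 0.034, and the mean of probe sets gave Eif2ak3 0.013 and Pdia4 -0.021. Differences that had been called turned as well: Derl2 in mouse A was 0.030 with the mean of probe sets, against -0.17, and Sec61b in mouse C was -0.0097 without mouse A, against 0.13, and up to 0.23 without another mouse. The causes were not tested. No scaling moved the median of all genes by over 0.030. With 4 arrays per target, the depth of a single value cannot be stated, and differences smaller than the intervals could not be seen.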
